A study of Mus musculus with 28 samples.

Results

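Dermal papilla cells (DP) were set against the matrix progenitors (TAC) that lie around them in the growing hair bulb, both sorted from mouse back skin at postnatal day 5. The comparison used 4 of the 28 libraries of the series, 2 per population, and covered the 12727 of 23015 genes in the table that had at least 1 FPKM in at least 2 of these 4 libraries. FPKM (fragments per kilobase of transcript, scaled to the fragments sequenced) is a level scaled for transcript length and library size. DP cells were Lef1-RFP positive with high surface integrin alpha 9 (Lef1-RFP+/ITGA9Hi). TAC cells were dimly positive for the keratin 14 driven nuclear reporter and Lef1-RFP positive (K14-H2BGFPLo/Lef1-RFP+), and the submitters describe them as progenitors that express Shh. Both came from dermal preparations of the same line, which carries K14-H2BGFP and Lef1-RFP on a mixed FVB/N, C57BI/6J and CD1 background, so every DP and TAC animal carried both transgenes. A second comparison shares no library with the first. It set 8 libraries of papilla cells sorted by follicle type (ZZ-DP and G/AA-DP from Sox2-GFP skin, G-DP and AA/ZZ-DP from Crabp1-GFP skin, all Lef1-RFP+/ITGA9Hi) against the 2 Mx libraries, which are matrix cells gated on dim K14-H2BGFP alone. Within each pair of subtype sorts the cells were split by presence or absence of that GFP, and all of these mice also carried Lef1-RFP. Neither the sex nor the number of animals per library is given in the labels used here. Nothing says that the replicates of a population came from separate animals. The p-values come from a fit of all 28 libraries. They measure the spread between replicates pooled over all 14 populations and not over DP and TAC alone, and this spread may be technical.

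The dermal papilla is a cluster of mesenchymal cells enclosed by the epithelial bulb of the hair follicle. It is known for secreted signals, among them R-spondins, fibroblast growth factors and inhibitors of bone morphogenetic proteins, that act on the matrix progenitors, whose daughters build the hair shaft and inner root sheath. The progenitors in turn release Sonic hedgehog, Wnts and platelet-derived growth factor, for which the papilla carries receptors. The members are described here pathway by pathway, with ligands on one side read against receptors on the other.

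Known markers of papilla and matrix progenitors and the genes behind the gates were read first. Rspo3, which encodes a secreted enhancer of Wnt signalling, had 664 and 786 FPKM in DP, against 6.89 and 10.5 FPKM in TAC, and Fgf7, which encodes keratinocyte growth factor, had 249 and 687 FPKM in DP, against 3.46 and 8.39 FPKM in TAC. Shh, the gene of Sonic hedgehog, had 0.413 and 0.638 FPKM in DP, against 70.5 and 54.96 FPKM in TAC. Lef1, a transcription factor that acts with beta-catenin and whose reporter was used to sort both populations, was present in both, with 96.7 and 87.5 FPKM in DP, against 258 and 232 FPKM in TAC. Of the genes behind the gates, Itga9 had 113 and 109 FPKM in DP, against 3.43 and 1.06 FPKM in TAC. Krt14 had 2.48 and 9.54 FPKM in DP, against 105 and 76.1 FPKM in TAC; both follow from the sort and are no finding. In build GRCm38.p6 the 4 markers lie at chr10:29453106-29535867 (Rspo3), chr2:126034658-126091185 (Fgf7), chr5:28456840-28467101 (Shh) and chr3:131110297-131224357 (Lef1). Of 22 papilla marker genes, among them the gate gene Itga9, 21 were higher in DP and none lower. Of 18 matrix and inner sheath markers 17 were lower in DP and none higher. The lists were chosen with earlier results of these data known, so these counts are no independent check of the sort. These lists also give the levels on the other side. The 19 papilla markers with at least 10 FPKM in DP had levels in TAC from 0.992% (Trpm3) to 28.7% (Wif1) of those in DP, with a median of 2.42%. The 17 matrix and inner sheath markers with at least 10 FPKM in TAC had levels in DP from 0.276% (Foxq1) to 16.2% (Msx2) of those in TAC, with a median of 4.25%. In Mx, sorted without the Lef1-RFP gate, the same papilla markers had a median of 0.181% of their DP level. The part of carried-over cells or RNA in low values of a gene was not tested.

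As a description across genes, log2(FPKM + 1) correlated at 0.911 between the DP replicates, at 0.942 between the TAC replicates and at 0.615 to 0.654 between DP and TAC libraries. FPKM summed to between 325416 and 424640 per library, which is not a depth, so no counting interval can be given. Xist, which is transcribed from the inactive X chromosome of females, had 506 and 868 FPKM in DP, against 290.3 and 384 FPKM in TAC, while the Y-linked Ddx3y had 4.65 and 0.0321 FPKM in DP, against 1.89 and 0 FPKM in TAC; replicate 1 of both populations thus had the higher Y-linked level. In these bulk samples fewer cells of a type and less RNA per cell cannot be told apart.

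Genes were called different where the log2 difference, DP minus TAC, was at least 1 in size and the limma adjusted p was under 0.05. By this rule 4023 of 12727 genes (31.6%) were called, 2123 higher in DP (16.7%) and 1900 lower in DP (14.9%). For 8549 genes (67.2%) the libraries of one population all lay above those of the other. The median log2 difference over all 12727 genes was -0.09. The count of each list below is to be read beside the 16.7% higher and 14.9% lower over all genes. Against this background, 39 of 103 ligand genes tested were higher in DP (37.9%) and 23 were lower (22.3%), with a median of 0.84. Of 107 receptor genes 40 were higher in DP (37.4%) and 22 lower (20.6%), with a median of 0.56. The lists are broad. That of ligands also holds Fgf13, whose product is not secreted, and Bmp1, which encodes a protease. That of receptors also holds the ligase genes Rnf43 and Znrf3. Of 18 secreted inhibitors of Wnt and BMP signalling, 14 were higher in DP (77.8%) and 1 was lower, with a median of 2.68. Another 52 listed ligand genes and 25 listed receptor genes had no value or lay under the expression minimum in these 4 libraries; Wnt2, Wnt7a, Fgf20, Gdf5 and Ihh were listed at 0 in all 4.

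**Figure D1:**
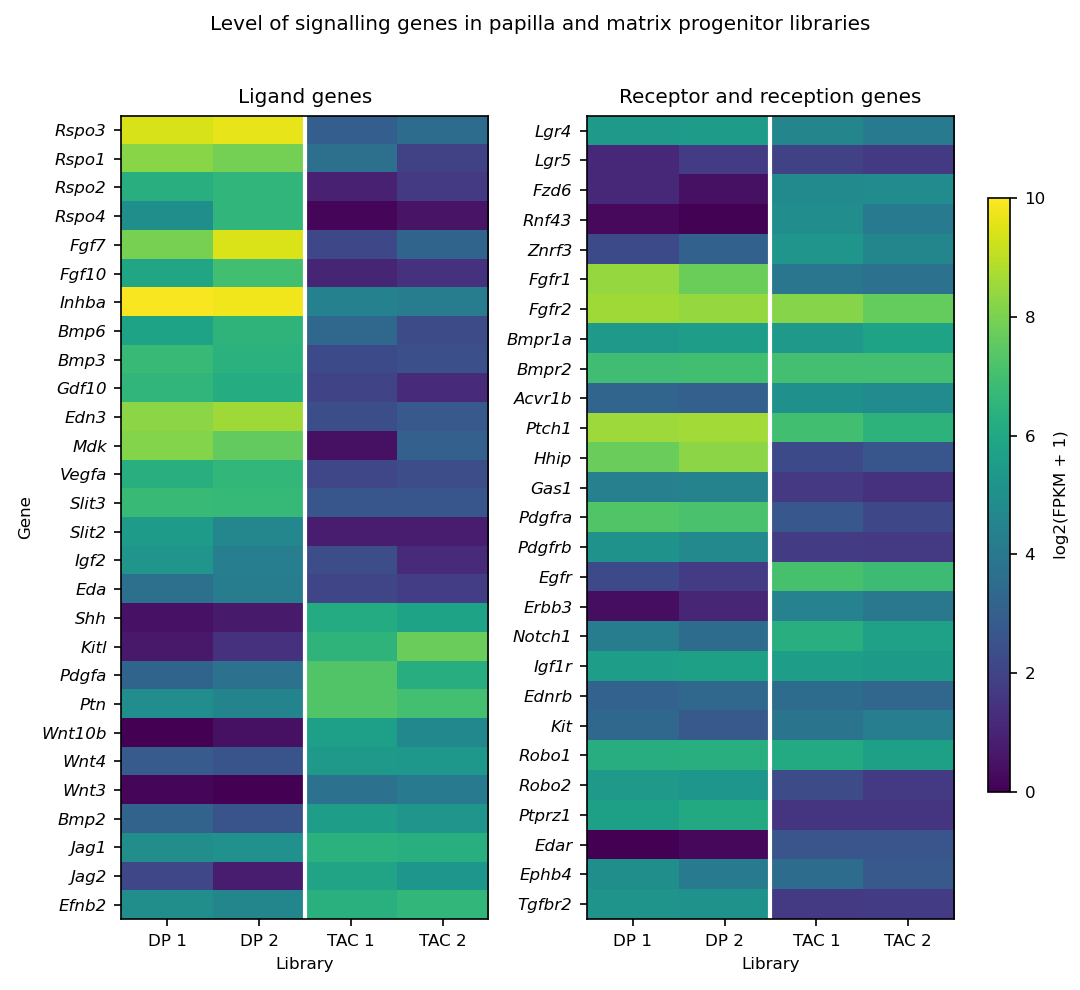
Levels of 28 ligand genes and 27 receptor or reception genes in the 4 libraries, as log2(FPKM + 1), with the DP libraries left of the TAC libraries. Rspo3 to Eda are brighter in DP and Shh to Efnb2 brighter in TAC, while Fgfr2, Bmpr1a, Bmpr2 and Igf1r have like colours in all 4 libraries.

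R-spondins bind Lgr receptors and keep the ubiquitin ligases Rnf43 and Znrf3 from removing Wnt receptors, which strengthens a Wnt signal without being one. All 4 R-spondin genes were higher in DP. Rspo1 had 300.0 and 239.8 FPKM in DP, against 11.9 and 2.89 FPKM in TAC (log2 difference 5.25 ± 0.55 SE, limma adjusted p = 5.493e-07). Rspo2 had 78.7 and 94.3 FPKM in DP, against 0.912 and 2.25 FPKM in TAC (log2 difference 5.13 ± 0.40). Rspo4 had 30.2 and 94.8 FPKM in DP, against 0.0849 and 0.435 FPKM in TAC (log2 difference 5.45 ± 0.66). For Rspo3 the log2 difference was 6.25 ± 0.43 (adjusted p = 4.78e-09), the largest among genes higher in DP with a mean of at least 5 FPKM there. The DP and TAC libraries did not overlap for any of the 4, which was also so for 67.2% of all genes tested.

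The genes on the receiving side of R-spondins were split between the populations. Lgr4 had 41.8 and 45.1 FPKM in DP, against 22.3 and 16.3 FPKM in TAC, and was called higher in DP (log2 difference 1.14 ± 0.24, adjusted p = 0.001135), so the receptor was detected on both sides. Lgr5 had 1.22 and 2.44 FPKM in DP, against 2.92 and 2.22 FPKM in TAC. Lgr6 had 0.507 and 1.08 FPKM in DP, against 4.87 and 0.642 FPKM in TAC; neither was called. Rnf43 had 0.192 and 0.0347 FPKM in DP, against 29.1 and 16.01 FPKM in TAC (log2 difference -4.35 ± 0.49, adjusted p = 1.164e-06). Znrf3 had 3.69 and 7.52 FPKM in DP, against 36.6 and 23.2 FPKM in TAC (log2 difference -2.25 ± 0.38, adjusted p = 0.0001181). Both ligase genes, which are also known Wnt targets, were thus lower in DP, opposite to the R-spondins that oppose their products.

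Of 10 genes tested in the list of Wnt ligands, which also holds Ndp, 5 were lower in DP, 2 higher and 3 not called. Wnt10b had 0 and 0.353 FPKM in DP, against 49.4 and 24.6 FPKM in TAC (log2 difference -4.95 ± 0.58, adjusted p = 1.85e-06). Wnt3 had 0.13 and 0 FPKM in DP, against 12.2 and 16.5 FPKM in TAC (log2 difference -3.84 ± 0.40, adjusted p = 4.164e-07). Wnt4 had 6.26 and 5.005 FPKM in DP, against 40.8 and 39.1 FPKM in TAC (log2 difference -2.63 ± 0.38). Wnt10a, at 0.779 and 0.0814 FPKM in DP, against 10.9 and 6.53 FPKM in TAC, and Wnt6, at 1.97 and 0.307 FPKM in DP, against 15.1 and 5.73 FPKM in TAC, were the other lower ones. Wnt5a, which in many cells signals without beta-catenin, was the Wnt with the highest level on either side, 98.9 and 133 FPKM in DP, against 112 and 147 FPKM in TAC, and its libraries overlapped. On the DP side Ndp, whose product norrin activates the receptor Fzd4, had 48.5 and 61.9 FPKM in DP, against 0.666 and 1.003 FPKM in TAC (log2 difference 4.93 ± 0.40, adjusted p = 2.469e-08). Wnt5b had 2.46 and 2.32 FPKM in DP, against 0 and 0.41 FPKM in TAC, a low level in both.

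Of 19 genes tested in the list of Wnt receptors, 4 were lower in DP, 2 higher and 13 not called. So 6 of 19 were called, near the 31.6% called over all genes. This list also holds the ligase genes Rnf43 and Znrf3, which are no receptors and were among the 4 lower. Both are counted again among the Wnt targets below. Fzd1, at 72.1 and 117 against 91.2 and 50.01 FPKM in DP against TAC, Fzd7, at 30.4 and 26.4 against 56.4 and 34.3 FPKM, and the coreceptor gene Lrp6, at 38.9 and 47.7 against 25.2 and 33.2 FPKM, were detected in all 4 libraries. Fzd6 had 1.25 and 0.368 FPKM in DP, against 25.5 and 27.4 FPKM in TAC (log2 difference -3.97 ± 0.52, adjusted p = 6.528e-06). Fzd5 had 7.26 and 2.61 FPKM in DP, against 23.2 and 17.8 FPKM in TAC (log2 difference -1.97 ± 0.45), both lower in DP. Fzd2 had 33.3 and 23.9 FPKM in DP, against 14.1 and 8.79 FPKM in TAC (log2 difference 1.27 ± 0.38). Without single libraries the 2 genes of the Wnt ligand list higher in DP (Ndp and Wnt5b) became 1 (DP replicate 1, DP replicate 2 or TAC replicate 1), and the 2 receptors higher in DP became 1 (DP replicate 1) or 0 (TAC replicate 2). Calls lost when 1 library was left out were those of Lgr4 without TAC replicate 2 (log2 difference 0.93) and Fzd2 without DP replicate 1 or TAC replicate 2 (adjusted p up to 0.15). Other calls lost were those of Fzd5 without DP replicate 2 (adjusted p = 0.0576) and Wnt6 without DP replicate 2 or TAC replicate 1 (adjusted p up to 0.188). Likewise lost was that of Wnt5b without DP replicate 1, DP replicate 2 or TAC replicate 1 (adjusted p up to 0.15).

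Secreted Wnt antagonists bind Wnts or their coreceptors. Of 9 tested, 7 were called, all of them higher in DP. Dkk3 and Notum were not called. Sostdc1, which also binds BMPs, had 756 and 951 FPKM in DP, against 16.6 and 13.3 FPKM in TAC (log2 difference 5.74 ± 0.74, adjusted p = 5.769e-06). Sfrp1 had 253 and 351 FPKM in DP, against 6.38 and 8.04 FPKM in TAC (log2 difference 5.19 ± 0.44). Sfrp2 had 141 and 122 FPKM in DP, against 2.48 and 4.63 FPKM in TAC (log2 difference 4.90 ± 0.71). Frzb had 5.09 and 8.15 FPKM in DP, against 0 and 0.173 FPKM in TAC. Wif1 had 98.5 and 234 FPKM in DP, against 37.02 and 58.3 FPKM in TAC. Dkk1 had 1.01 and 3.66 FPKM in DP, against 0 and 0 FPKM in TAC, and being listed at 0 in both TAC libraries it has no fold. The papilla side therefore held high levels of both R-spondin and Wnt antagonist transcripts. Calls were lost for Wif1 without DP replicate 2 or TAC replicate 1 (adjusted p up to 0.249) and Dkk2 without DP replicate 2 or TAC replicate 1 (adjusted p up to 0.06).

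Known Wnt target genes were divided: of 14, 6 were lower in DP, 3 higher and 5 not called, with a median log2 difference of -0.99. Tcf7, a partner of beta-catenin on DNA, had 2.87 and 8.08 FPKM in DP, against 27.5 and 35.2 FPKM in TAC (log2 difference -2.44 ± 0.47, adjusted p = 0.0004888). Lef1 was called lower in DP (log2 difference -1.40 ± 0.42, adjusted p = 0.01511), and this call rested on all 4 libraries. Axin2, a feedback inhibitor often read as a gauge of the pathway, had 35.01 and 25.6 FPKM in DP, against 77.1 and 51.8 FPKM in TAC. It was not called (log2 difference -1.05 ± 0.52, limma adjusted p = 0.1365). Its DP libraries both lay below its TAC libraries, but such a lack of overlap was found for 67.2% of all genes tested. Axin2 was called lower in DP when the DP and TAC libraries alone were fitted (adjusted p = 0.03199) or the K14-H2BGFP libraries alone (adjusted p = 0.0211). Nkd2, another feedback inhibitor, went the other way, with 158 and 175 FPKM in DP, against 19.5 and 29.7 FPKM in TAC (log2 difference 2.73 ± 0.34, adjusted p = 3.972e-06). Calls lost on leaving out 1 library were those of Lef1 without any 1 of the 4 libraries (adjusted p up to 0.0833) and Ccnd1 without DP replicate 2, TAC replicate 1 or TAC replicate 2 (adjusted p up to 0.168). Also lost was that of Nkd1 without any 1 of the 4 libraries (adjusted p up to 0.207), and without DP replicate 2 or TAC replicate 1 the count of targets higher in DP was 1.

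Some secreted genes called here had binding letters of LEF and TCF factors just upstream. The 250 bases before each annotated start were searched on both strands for CTTTGAA and CTTTGAT in the RefSeq promoters of build GRCm38.p6. At least 1 of these was present in 7.48% of all 32851 promoter windows (CTTTGAA in 4.46% and CTTTGAT in 3.21%). Of 53 ligand and inhibitor genes higher in DP, 40 had a window and 5 of these held a match (Dkk1, Edn3, Igf1, Pros1 and Wnt5b). Of 24 lower in DP, 20 had a window and none held a match. These counts are per gene, with a match in any of its windows, whereas the 7.48% is per window, so they cannot be compared. The windows of an antagonist, a peptide ligand and a growth factor are shown, with the match in capitals and reading 5′ to 3′ towards the start that the RefSeq table uses, because these 3 genes belong to different pathways and were all higher in DP. They lie at chr19:30549497-30549746 on the minus strand for Dkk1, chr2:174760369-174760618 on the plus strand for Edn3 and chr10:87860861-87861110 on the plus strand for Igf1, with the match starting 117, 237 and 186 bases before that start. For Dkk1 and Edn3 it is the start of the annotated gene, whereas the Igf1 window lies within the annotated gene, which spans chr10:87858265-87937047. In the Edn3 window the letters read TTCAAAG, which is CTTTGAA on the other strand. A match describes letters and not a binding site.
Dkk1: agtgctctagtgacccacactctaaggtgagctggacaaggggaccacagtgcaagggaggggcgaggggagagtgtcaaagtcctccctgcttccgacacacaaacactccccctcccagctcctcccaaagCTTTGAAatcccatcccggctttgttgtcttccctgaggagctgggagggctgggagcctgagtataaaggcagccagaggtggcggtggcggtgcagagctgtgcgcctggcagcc
Edn3: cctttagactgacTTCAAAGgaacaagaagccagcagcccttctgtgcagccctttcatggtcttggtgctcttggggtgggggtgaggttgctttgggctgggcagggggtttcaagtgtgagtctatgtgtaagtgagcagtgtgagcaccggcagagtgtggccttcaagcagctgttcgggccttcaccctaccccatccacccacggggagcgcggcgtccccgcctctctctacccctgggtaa
Igf1: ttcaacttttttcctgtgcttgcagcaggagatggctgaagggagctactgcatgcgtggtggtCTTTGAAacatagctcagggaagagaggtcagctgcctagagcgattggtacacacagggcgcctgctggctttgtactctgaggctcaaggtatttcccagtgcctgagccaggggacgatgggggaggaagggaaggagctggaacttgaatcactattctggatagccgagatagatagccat

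Fibroblast growth factors of the Fgf7 and Fgf10 kind are made by mesenchyme and act on the epithelial splice form of Fgfr2. Of 7 genes tested in the list of FGF ligands, 4 were higher in DP and none was lower. This list also holds the intracellular members Fgf11, which was not called, and Fgf13, which is among the 4. The log2 difference of Fgf7 was 6.00 ± 0.58 (adjusted p = 2.014e-07), although its DP replicates differed from each other by more than its TAC replicates did. Fgf10 had 57.6 and 124 FPKM in DP, against 1.07 and 1.72 FPKM in TAC (log2 difference 5.17 ± 0.50, adjusted p = 2.086e-07). Fgf13, an intracellular member of the family that is not a secreted ligand, had 6.23 and 3.74 FPKM in DP, against 0.0597 and 0.137 FPKM in TAC. Fgf2 had 17.04 and 9.17 FPKM in DP, against 6.59 and 2.27 FPKM in TAC. Fgf1 and Fgf18 were not called. With a pseudocount of 5 in place of 1, the 4 higher genes became 2.

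Fgfr2, the receptor gene, had 379.9 and 342 FPKM in DP, against 290.0 and 198 FPKM in TAC, and was not called (log2 difference 0.59 ± 0.25, adjusted p = 0.09069); the FPKM table does not separate its splice forms. Fgfr1 had 338 and 213 FPKM in DP, against 14.1 and 12.8 FPKM in TAC (log2 difference 4.22 ± 0.30, adjusted p = 5.495e-09). Fgfr3 had 17.7 and 25.5 FPKM in DP, against 21.8 and 12.96 FPKM in TAC, with overlapping libraries. Genes known to answer FGF signals were split, 4 higher in DP, 3 lower and 3 not called. Dusp6, a phosphatase that acts on ERK, had 3.67 and 3.63 FPKM in DP, against 36.6 and 49.2 FPKM in TAC (log2 difference -3.22 ± 0.33, adjusted p = 3.962e-07). The transcription factor gene Etv4 had 0.0995 and 0.603 FPKM in DP, against 19.6 and 22.97 FPKM in TAC (log2 difference -4.07 ± 0.65). Spry4, an inhibitor of receptor tyrosine kinase signalling, had 16.6 and 29.3 FPKM in DP, against 2.26 and 2.32 FPKM in TAC (log2 difference 2.81 ± 0.37, adjusted p = 7.019e-06). Etv1 had 6.36 and 14.4 FPKM in DP, against 0.378 and 2.03 FPKM in TAC (log2 difference 2.38 ± 0.52). Members of 1 family thus lay on opposite sides, Etv1 higher in DP and Etv4 lower. Calls were lost for Fgf2 without DP replicate 1 or TAC replicate 2 (adjusted p up to 0.261) and Fgfrl1 without DP replicate 1 or TAC replicate 1 (adjusted p up to 0.0971). Other calls lost were those of Spry2 without any 1 of the 4 libraries (adjusted p up to 0.141) and Spred1 without TAC replicate 1 (adjusted p = 0.085), and without TAC replicate 1 the count of response genes higher in DP was 2. Without DP replicate 1 or TAC replicate 1 only 1 FGF receptor gene was called higher.

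Bone morphogenetic proteins (BMPs) drive differentiation of matrix cells, and their antagonists bind them outside the cell. Of 12 genes tested in the list of BMP, GDF and inhibin ligands, 5 were higher in DP, 2 lower and 5 not called. Among those not called is Bmp1, which shares the name but encodes a protease. Inhba, the gene of activin A, had 957 and 874 FPKM in DP, against 20.2 and 18.1 FPKM in TAC (log2 difference 5.51 ± 0.43, adjusted p = 1.93e-08), the highest level of any ligand listed. Bmp3 had 109 and 82.4 FPKM in DP, against 3.75 and 4.47 FPKM in TAC (log2 difference 4.23 ± 0.35). Gdf10 had 94.7 and 71.8 FPKM in DP, against 3.11 and 1.36 FPKM in TAC (log2 difference 4.74 ± 0.41). Bmp6 had 54.6 and 89.96 FPKM in DP, against 9.01 and 4.06 FPKM in TAC (log2 difference 3.32 ± 0.55). Bmp4 had 107 and 208 FPKM in DP, against 87.7 and 60.8 FPKM in TAC, and was not called (adjusted p = 0.06991), although it was called higher without DP replicate 1 (adjusted p = 0.03314). Bmp2 had 8.12 and 5.07 FPKM in DP, against 47.8 and 36.2 FPKM in TAC (log2 difference -2.52 ± 0.38, adjusted p = 4.13e-05). Bmp8a had 0.553 and 0 FPKM in DP, against 7.54 and 5.38 FPKM in TAC; these were the lower ones in DP.

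Of 10 BMP antagonist genes tested, 8 were higher in DP and 1 was lower. Nog, the gene of noggin, had 14.4 and 12.7 FPKM in DP, against 0 and 0.0915 FPKM in TAC (log2 difference 3.80 ± 0.42, adjusted p = 9.02e-07). Fst, whose product follistatin binds activin, had 84.6 and 112 FPKM in DP, against 4.96 and 4.49 FPKM in TAC (log2 difference 4.11 ± 0.35, adjusted p = 4.164e-08), so that activin and its antagonist were higher in the same population. Grem1 had 54.7 and 25.7 FPKM in DP, against 0.848 and 1.75 FPKM in TAC. The exception was Bmper, with 2.69 and 1.23 FPKM in DP, against 27.9 and 34.2 FPKM in TAC (log2 difference -3.47 ± 0.43, adjusted p = 3.894e-06).

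Of 8 BMP and activin receptor genes 6 were not called, beside 31.6% called over all genes. Bmpr1a had 40.2 and 47.8 FPKM in DP, against 40.5 and 54.6 FPKM in TAC. Bmpr2 had 122 and 123 FPKM in DP, against 128 and 127 FPKM in TAC, with log2 differences of -0.10 ± 0.36 and -0.06 ± 0.24. Acvr1b, an activin receptor gene, had 8.51 and 7.48 FPKM in DP, against 31.7 and 27.5 FPKM in TAC (log2 difference -1.77 ± 0.35, adjusted p = 0.0006675), so Inhba and one of its receptor genes lay on opposite sides. Of 10 genes known to answer BMP, 6 were lower in DP and 1 higher. Msx2 had 30.3 and 55.7 FPKM in DP, against 265 and 266 FPKM in TAC (log2 difference -2.66 ± 0.42, adjusted p = 5.265e-05). Foxn1 had 0.533 and 0.994 FPKM in DP, against 28.7 and 19.6 FPKM in TAC (log2 difference -3.82 ± 0.52). Gata3 had 3.12 and 1.9 FPKM in DP, against 31.9 and 23.998 FPKM in TAC (log2 difference -3.05 ± 0.48). Several of these are also known as markers of matrix and inner sheath cells. Id3 had 241 and 264 FPKM in DP, against 278 and 199.8 FPKM in TAC, with overlapping libraries. Id1 had 22.9 and 34.9 FPKM in DP, against 104 and 122 FPKM in TAC. The 1 response gene higher in DP was lost without DP replicate 2 or TAC replicate 1, and without DP replicate 1 there were 2. Calls were lost for Id1 without DP replicate 1, TAC replicate 1 or TAC replicate 2 (adjusted p up to 0.133) and Id2 without DP replicate 2 or TAC replicate 1 (adjusted p up to 0.422). Likewise lost were those of Smad7 without any 1 of the 4 libraries (adjusted p up to 0.156) and Gdf11 without TAC replicate 1 (adjusted p = 0.193).

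TGF-beta genes leaned to DP. Tgfb3 had 23.1 and 18.7 FPKM in DP, against 2.13 and 0.591 FPKM in TAC (log2 difference 3.29 ± 0.49, adjusted p = 2.932e-05). Tgfb2 had 8.55 and 11.003 FPKM in DP, against 2.41 and 2.81 FPKM in TAC. All 4 receptor genes tested were higher in DP, Tgfbr2 with 34.9 and 34.02 FPKM in DP, against 2.22 and 2.39 FPKM in TAC (log2 difference 3.43 ± 0.34, adjusted p = 3.067e-07), Tgfbr1 with 46.3 and 82.2 FPKM in DP, against 14.2 and 19.4 FPKM in TAC, Tgfbr3 with 25.7 and 24.99 FPKM in DP, against 1.61 and 0.99 FPKM in TAC, and Eng with 9.48 and 15.6 FPKM in DP, against 0.927 and 0.971 FPKM in TAC. The ligand genes Tgfb2 and Tgfb3 were thus called on the same side as the receptor genes. The third ligand gene, Tgfb1, had 8.71 and 2.35 FPKM in DP, against 13.8 and 9.14 FPKM in TAC, the lower values in DP, and was not called (log2 difference -1.10 ± 0.57, adjusted p = 0.1547); without DP replicate 1 it was called lower (adjusted p = 0.04265). The call of Tgfb2 was lost without DP replicate 2 (adjusted p = 0.0527).

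Of the hedgehog genes the ligand was on the TAC side, while 4 of 8 reception genes were higher in DP, 1 was lower and 3 were not called. Shh was lower in DP (log2 difference -5.38 ± 0.67, adjusted p = 4.122e-06), and Ihh was listed at 0 in all 4 libraries. Ptch1, the gene of the receptor and itself a target of the pathway, had 365 and 390.5 FPKM in DP, against 124 and 87.9 FPKM in TAC (log2 difference 1.85 ± 0.35, adjusted p = 0.0004098). Hhip, a membrane protein that captures hedgehog ligands and is also a target, had 209.8 and 309.9 FPKM in DP, against 3.71 and 5.36 FPKM in TAC (log2 difference 5.55 ± 0.34, adjusted p = 1.156e-09). The coreceptor gene Gas1 had 19.4 and 21.1 FPKM in DP, against 2.18 and 1.66 FPKM in TAC (log2 difference 2.87 ± 0.35), and Gli2, which transmits the signal to DNA, had 33.9 and 29.4 FPKM in DP, against 6.17 and 4.84 FPKM in TAC (log2 difference 2.33 ± 0.43). Smo, the signal transducer, had 56.9 and 39.4 FPKM in DP, against 47.9 and 37.5 FPKM in TAC, with overlapping libraries and a log2 difference of 0.16 ± 0.29.

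Gli1, a common gauge of the pathway, had 53.3 and 52.1 FPKM in DP, against 19.7 and 13.8 FPKM in TAC (log2 difference 1.62 ± 0.48, adjusted p = 0.01453), and TAC thus also held Ptch1 and Gli1 transcripts. Gli3, whose product mostly represses targets, had 51.2 and 63.1 FPKM in DP, against 108 and 125 FPKM in TAC. Calls were lost for Gli1 without DP replicate 1, DP replicate 2 or TAC replicate 2 (adjusted p up to 0.11) and Gli3 without DP replicate 1 or TAC replicate 2 (log2 difference -0.87), and without either DP replicate 1 or TAC replicate 2 the count of response genes lower in DP was 1.

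Notch signalling passes between touching cells. Of 5 ligand genes, 3 were lower in DP and 1 was higher. Jag2 had 3.36 and 0.704 FPKM in DP, against 56.9 and 36.98 FPKM in TAC (log2 difference -4.10 ± 0.58, adjusted p = 1.603e-05). Jag1 had 29.8 and 32.5 FPKM in DP, against 81.9 and 78.7 FPKM in TAC (log2 difference -1.34 ± 0.27, adjusted p = 0.000746). Dlk1, a ligand-like protein that inhibits the pathway in some cells, had 18.2 and 10.97 FPKM in DP, against 0.253 and 0.0407 FPKM in TAC (log2 difference 3.73 ± 0.63). Notch1 had 17.9 and 10.6 FPKM in DP, against 75.5 and 51.4 FPKM in TAC (log2 difference -2.10 ± 0.42, adjusted p = 0.0006571), on the same side as the jagged genes, and Notch2 and Notch3 were not called; Notch2 was called lower without DP replicate 1 (adjusted p = 0.01736). Response genes were divided. Hes1 had 5.88 and 2.64 FPKM in DP, against 68.5 and 51.8 FPKM in TAC (log2 difference -3.60 ± 0.38). Nrarp had 0.826 and 0.542 FPKM in DP, against 24.7 and 13.04 FPKM in TAC. Heyl, of the same family as Hey1 and Hey2, was also lower in DP, with 4.11 and 3.82 FPKM in DP, against 22.3 and 13.6 FPKM in TAC (log2 difference -1.89 ± 0.39, adjusted p = 0.0009128). Hey1 had 90.6 and 122 FPKM in DP, against 5.78 and 2.67 FPKM in TAC (log2 difference 4.41 ± 0.60). Hey2 had 86.9 and 125 FPKM in DP, against 4.2 and 2.16 FPKM in TAC (log2 difference 4.70 ± 0.41, adjusted p = 7.064e-08). In all, 2 response genes were higher in DP, 3 lower and 1 not called.

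**Figure D2:**
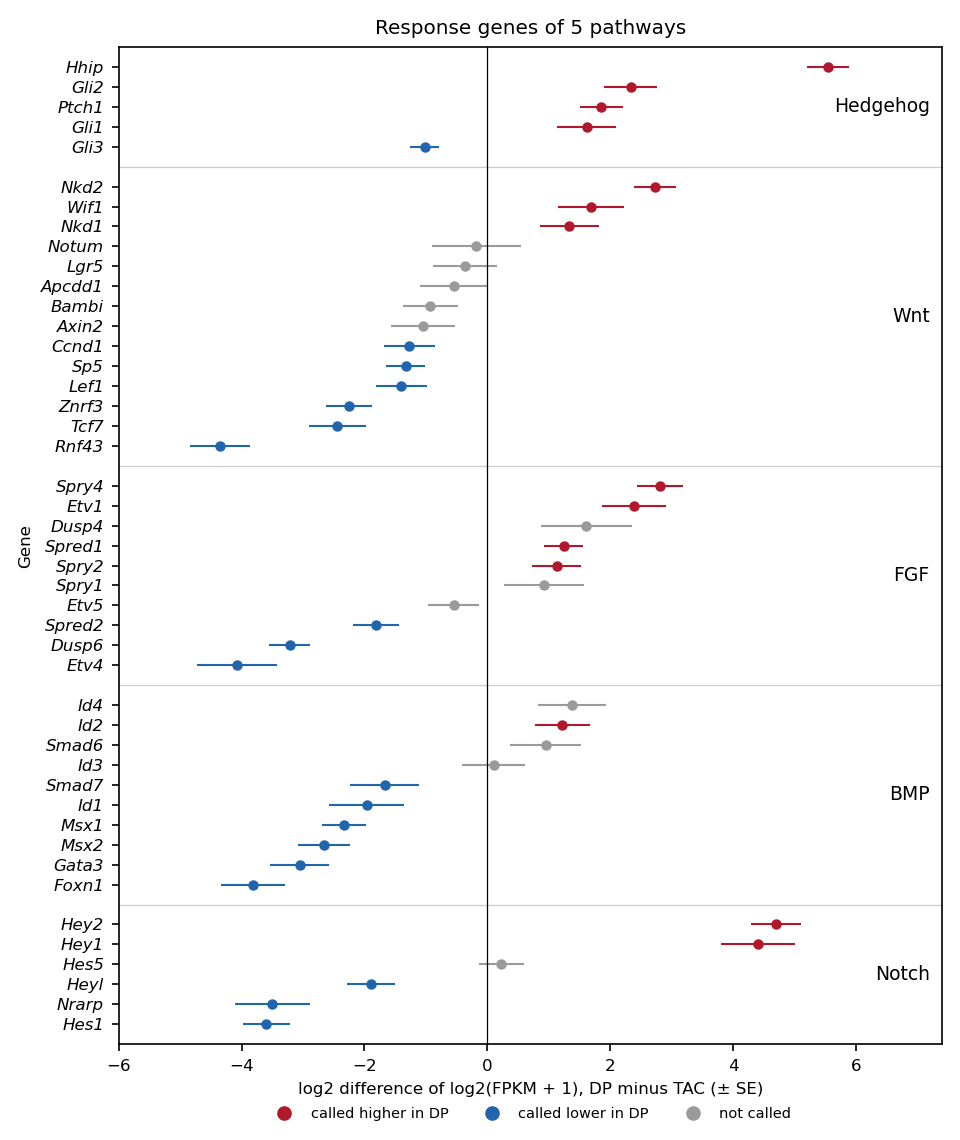
Log2 difference of log2(FPKM + 1), DP minus TAC, with its SE for tested response genes of the Hedgehog, Wnt, FGF, BMP and Notch pathways. Values right of 0 are higher in DP; each pathway has genes on both sides of 0, with Hhip at 5.55, Rnf43 at -4.35 and Hey2 at 4.70, and Sp5, listed at 0 in both DP libraries, has a value set by the pseudocount.

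Platelet-derived growth factor A is an epithelial signal to mesenchyme. Pdgfa had 8.29 and 12.6 FPKM in DP, against 156 and 74.8 FPKM in TAC (log2 difference -3.28 ± 0.47, adjusted p = 2.12e-05). Its receptor gene Pdgfra had 155 and 140.0 FPKM in DP, against 5.64 and 3.52 FPKM in TAC (log2 difference 4.76 ± 0.43, adjusted p = 1.049e-07). Pdgfrb had 33.01 and 25.1 FPKM in DP, against 2.4 and 2.25 FPKM in TAC (log2 difference 3.16 ± 0.32). Vegfa, which encodes a growth factor for blood vessels, had 76.2 and 97.8 FPKM in DP, against 3.42 and 4.12 FPKM in TAC (log2 difference 4.20 ± 0.39, adjusted p = 1.236e-07). Its receptor gene Kdr had 3.12 and 1.005 FPKM in DP, against 0.814 and 0.209 FPKM in TAC, and was called higher only without DP replicate 2 (adjusted p = 0.04707). The semaphorin and VEGF coreceptor gene Nrp2 had 37.3 and 24.4 FPKM in DP, against 120.0 and 77.3 FPKM in TAC (log2 difference -1.64 ± 0.32). Of 7 ligand genes 4 were higher in DP, but this count was 2 without DP replicate 1 and 1 without TAC replicate 1, since calls were lost for Vegfb without DP replicate 1 or TAC replicate 1 (adjusted p up to 0.154) and Vegfc without DP replicate 1 or TAC replicate 1 (adjusted p up to 0.214). Also lost was that of Pdgfd without DP replicate 2, TAC replicate 1 or TAC replicate 2 (adjusted p up to 0.116).

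The epidermal growth factor receptor gene Egfr was low in both DP libraries, with 3.56 and 2.42 FPKM in DP, against 136 and 114 FPKM in TAC (log2 difference -4.99 ± 0.41, adjusted p = 3.371e-08). Erbb3 had 0.297 and 1.08 FPKM in DP, against 20.8 and 14.9 FPKM in TAC (log2 difference -3.50 ± 0.37, adjusted p = 6.134e-07). Erbb2 had 15.9 and 18.4 FPKM in DP, against 44.7 and 25.6 FPKM in TAC, and was called lower only without TAC replicate 2 (adjusted p = 0.02836). Hbegf, an Egfr ligand, had 0.902 and 2.04 FPKM in DP, against 16.3 and 12.6 FPKM in TAC (log2 difference -2.67 ± 0.36, adjusted p = 1.113e-05), on the same side as its receptor. Nrg2, which encodes a neuregulin, had 14.9 and 15.9 FPKM in DP, against 0.542 and 2.21 FPKM in TAC (log2 difference 2.88 ± 0.70, adjusted p = 0.003264), on the opposite side from Erbb3; its call was lost without TAC replicate 1 (adjusted p = 0.0548).

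Among ligands for other receptor tyrosine kinases and for endothelin receptors, 5 of 9 genes were higher in DP and 2 lower. Edn3, whose peptide acts on melanocyte precursors through Ednrb, had 302 and 384 FPKM in DP, against 4.26 and 5.91 FPKM in TAC (log2 difference 5.83 ± 0.33, adjusted p = 6.314e-10). Kitl, whose product stem cell factor binds the Kit receptor of melanocytes, had 0.625 and 1.68 FPKM in DP, against 88.5 and 212 FPKM in TAC (log2 difference -6.05 ± 0.49, adjusted p = 2.469e-08), so these 2 melanocyte-directed ligand genes lay on opposite sides. Their receptor genes were low in both, Ednrb with 7.89 and 9.32 FPKM in DP, against 10.6 and 8.73 FPKM in TAC, and Kit with 9.003 and 5.86 FPKM in DP, against 13.5 and 18.3 FPKM in TAC. In melanocytes of the same line (Mc) Ednrb had 602 and 458 FPKM. Ednra had 64.9 and 70.3 FPKM in DP, against 93.1 and 95.5 FPKM in TAC, and was not called. Of 9 melanocyte markers tested 7 were lower in DP, and the 10 listed summed to 26.4 and 31.9 FPKM in DP, against 291.7 and 204.7 FPKM in TAC. Their levels in TAC were 1.06% to 2.2% of those in Mc, with a median of 1.63%, and in DP 0.0708% to 1.01%, with a median of 0.141%. The part of melanocytes in the Kit and Ednrb values was not tested. That count of 7 was 3 without DP replicate 1 and 4 without either TAC library.

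Igf1 had 6.995 and 10.5 FPKM in DP, against 1.15 and 0.354 FPKM in TAC (log2 difference 2.49 ± 0.49, adjusted p = 0.0005726). Igf2 had 36.4 and 18.2 FPKM in DP, against 4.17 and 1.35 FPKM in TAC (log2 difference 2.94 ± 0.43); their receptor gene Igf1r had 46.6 and 50.5 FPKM in DP, against 47.01 and 42.2 FPKM in TAC, with overlapping libraries. Hgf, the gene of hepatocyte growth factor, had 4.07 and 2.52 FPKM in DP, against 0.1 and 0 FPKM in TAC (log2 difference 2.01 ± 0.35, adjusted p = 0.0001514). Its receptor gene Met had 0.173 and 0.199 FPKM in DP, against 2.38 and 1.84 FPKM in TAC, and was not called (adjusted p = 0.179), although it was called lower with the DP and TAC libraries alone (adjusted p = 0.01704). Gas6 had 0.529 and 1.97 FPKM in DP, against 12.6 and 6.57 FPKM in TAC (log2 difference -2.25 ± 0.51). Pros1 had 32.98 and 32.8 FPKM in DP, against 8.15 and 6.34 FPKM in TAC (log2 difference 2.05 ± 0.48): these ligands share a family of receptors, of which Axl had 34.4 and 25.1 FPKM in DP, against 14.9 and 12.7 FPKM in TAC. Mertk had 3.04 and 4.64 FPKM in DP, against 19.3 and 16.4 FPKM in TAC. Ligands and receptors of that family were each divided between the populations. The call of Axl was lost without DP replicate 1, TAC replicate 1 or TAC replicate 2 (adjusted p up to 0.175).

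Midkine and pleiotrophin are related heparin-binding growth factors that share receptors. Mdk had 279 and 193 FPKM in DP, against 0.359 and 7.3 FPKM in TAC (log2 difference 6.12 ± 0.75, adjusted p = 3.271e-06). Ptn had 28.5 and 21.8 FPKM in DP, against 157 and 127 FPKM in TAC (log2 difference -2.45 ± 0.49, adjusted p = 0.0006693), so each population was higher for 1 of the pair. Their receptor gene Ptprz1 had 50.97 and 66.5 FPKM in DP, against 1.87 and 1.93 FPKM in TAC (log2 difference 4.35 ± 0.45, adjusted p = 4.862e-07). Sdc3 had 10.3 and 13.2 FPKM in DP, against 2.26 and 0.624 FPKM in TAC. All 7 tested genes listed with the GDNF and neurotrophin receptors, Ptprz1 and Sdc3 among them, were higher in DP. Gfra1, a coreceptor for GDNF, had 92.5 and 108 FPKM in DP, against 4.81 and 4.1 FPKM in TAC (log2 difference 4.21 ± 0.39, adjusted p = 1.29e-07), but Ret, the signalling partner, and Gdnf itself lay under the expression minimum. The call of Ngfr was lost without DP replicate 2 or TAC replicate 1 (adjusted p up to 0.271).

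Axon guidance genes were mixed. Slit3 had 105 and 102 FPKM in DP, against 5.44 and 5.32 FPKM in TAC (log2 difference 4.03 ± 0.45, adjusted p = 1.011e-06). Slit2 had 43.5 and 23.7 FPKM in DP, against 0.753 and 0.703 FPKM in TAC (log2 difference 4.26 ± 0.42, adjusted p = 2.494e-07). Of their receptors, Robo1 had 73.5 and 77.1 FPKM in DP, against 67.5 and 50.5 FPKM in TAC, and was not called. Robo2 had 40.04 and 37.2 FPKM in DP, against 3.81 and 2.25 FPKM in TAC (log2 difference 3.32 ± 0.31). Of the netrin receptors Dcc had 46.1 and 52.8 FPKM in DP, against 0.856 and 1.07 FPKM in TAC (log2 difference 4.68 ± 0.38, adjusted p = 2.509e-08). Unc5c had 23.6 and 15.6 FPKM in DP, against 0.738 and 0.413 FPKM in TAC. Unc5b had 16.04 and 14.99 FPKM in DP, against 128 and 115 FPKM in TAC (log2 difference -2.89 ± 0.56, adjusted p = 0.0004485). Sema4a had 3.73 and 2.78 FPKM in DP, against 27.1 and 27.1 FPKM in TAC. Sema4d had 5.88 and 3.04 FPKM in DP, against 19.5 and 12.8 FPKM in TAC. The Sema4d receptor gene Plxnb1 had 4.23 and 2.05 FPKM in DP, against 43.3 and 38.8 FPKM in TAC (log2 difference -3.39 ± 0.41). Over these lists 4 of 19 ligand genes were higher in DP (21.1%) and 3 lower (15.8%). These shares are near the 16.7% and 14.9% over all genes and are no result about the ligands. Of 15 receptor genes 6 were higher (40%) and 5 lower (33.3%). The 4 became 2 without TAC replicate 2 and the 5 became 3 without TAC replicate 1; calls were lost for Sema6d without TAC replicate 2 (adjusted p = 0.078) and Sema3g without any 1 of the 4 libraries (adjusted p up to 0.184). Other calls lost were those of Plxna1 without DP replicate 2 or TAC replicate 1 (adjusted p up to 0.179) and Plxna3 without DP replicate 1 or TAC replicate 1 (adjusted p up to 0.114). Likewise lost were those of Plxna4 without DP replicate 1, TAC replicate 1 or TAC replicate 2 (adjusted p up to 0.305) and Sema4g without DP replicate 1, DP replicate 2 or TAC replicate 1 (adjusted p up to 0.16).

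Ephrins and Eph receptors signal in both directions at cell contacts. Efnb2 had 29.8 and 22.97 FPKM in DP, against 81.5 and 96.2 FPKM in TAC (log2 difference -1.72 ± 0.26, adjusted p = 3.172e-05). Efnb3 had 14.8 and 13.7 FPKM in DP, against 0.762 and 0.156 FPKM in TAC (log2 difference 3.42 ± 0.44). Efna5 had 33.5 and 40.9 FPKM in DP, against 7.54 and 8.95 FPKM in TAC (log2 difference 2.05 ± 0.33). Receptor genes differed by member: Epha7 had 33.3 and 53.1 FPKM in DP, against 0.858 and 1.62 FPKM in TAC (log2 difference 4.29 ± 0.43, adjusted p = 2.929e-07). Epha2 had 1.69 and 1.11 FPKM in DP, against 60.3 and 33.7 FPKM in TAC (log2 difference -4.27 ± 0.42, adjusted p = 2.063e-07). Epha1 had 9.24 and 2.37 FPKM in DP, against 75.7 and 53.5 FPKM in TAC (log2 difference -3.46 ± 0.50). Of 10 Eph genes 6 were higher in DP and 2 lower, but only 3 were higher without DP replicate 1, since calls were lost for Ephb1 without DP replicate 1, DP replicate 2 or TAC replicate 1 (adjusted p up to 0.356) and Ephb2 without DP replicate 1 or TAC replicate 2 (adjusted p up to 0.537). Also lost was that of Ephb4 without DP replicate 1 or TAC replicate 2 (adjusted p up to 0.211). The call of Efna1 was lost without DP replicate 1 or TAC replicate 2 (adjusted p up to 0.524).

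Eda, a TNF family ligand needed for hair placodes, had 12.1 and 17.9 FPKM in DP, against 3.21 and 2.53 FPKM in TAC (log2 difference 2.03 ± 0.40, adjusted p = 0.0005542). Its receptor gene Edar had 0 and 0.164 FPKM in DP, against 5.28 and 5.23 FPKM in TAC (log2 difference -2.54 ± 0.47, adjusted p = 0.0002958). The related receptor genes Tnfrsf19, at 29.6 and 21.4 against 149 and 144 FPKM in DP against TAC, and Tnfrsf12a, at 1.61 and 1.32 against 73.3 and 47.9 FPKM, were also lower in DP. Il6st, the gene of the coreceptor gp130, had 175 and 179 FPKM in DP, against 24.01 and 20.9 FPKM in TAC (log2 difference 2.92 ± 0.27, adjusted p = 1.049e-07). Lifr, which pairs with gp130, had 58.7 and 51.1 FPKM in DP, against 2.63 and 5.38 FPKM in TAC (log2 difference 3.54 ± 0.45). Il6ra, which also pairs with it, was lower in DP, with 0.0573 and 0.182 FPKM in DP, against 1.92 and 2.15 FPKM in TAC (log2 difference -1.44 ± 0.42, adjusted p = 0.01312). Cxcr4 had 42.2 and 55.1 FPKM in DP, against 5.22 and 2.44 FPKM in TAC, while Cxcl12, its ligand, had 0.108 and 3.27 FPKM in DP, against 2.68 and 2.02 FPKM in TAC, and was not called. Calls in these lists were lost for Cxcl10 without DP replicate 1 (adjusted p = 0.0889) and Cxcr7 without DP replicate 1, DP replicate 2 or TAC replicate 2 (adjusted p up to 0.227). Another call lost was that of Il6ra without DP replicate 1, TAC replicate 1 or TAC replicate 2 (adjusted p up to 0.0744).

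**Figure D3:**
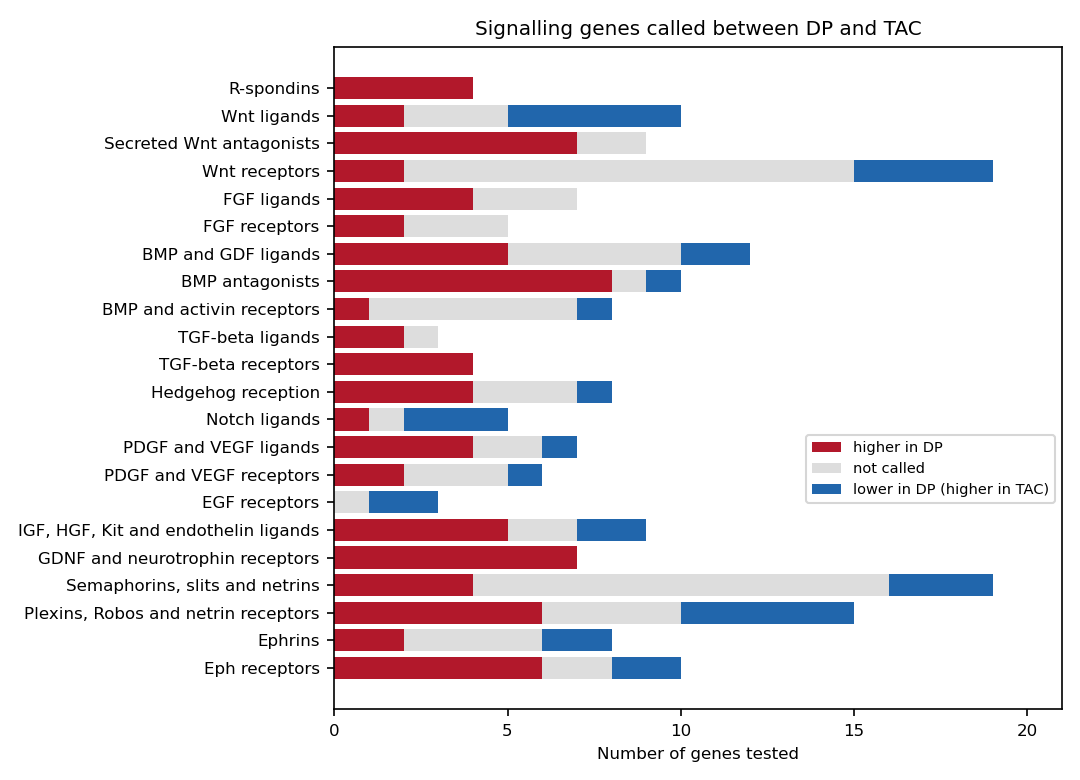
Number of genes tested in 22 signalling lists, divided into higher in DP, not called and lower in DP. All 4 R-spondins and all 4 TGF-beta receptors are called higher in DP. So are all 7 genes tested in the list of GDNF and neurotrophin receptors, which also holds the midkine receptor genes Ptprz1 and Sdc3. Not called are 6 of 8 BMP and activin receptors and 13 of 19 genes in the list of Wnt receptors. The latter list also holds the ligase genes Rnf43 and Znrf3.

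Read as pairs, the most frequent case in both directions was a ligand called higher on one side with a receptor gene not called. Over all genes 31.6% were called, so not being called is the more frequent case there too and is no result about the receptors. Each Wnt ligand was listed with the same Fzd genes, which weighs on the counts for ligands lower in DP. The lists held 227 known ligand and receptor pairs, with some ligands and receptors in several. In 56 pairs, built on 28 ligands, the ligand was higher in DP. The receptor gene reached 1 FPKM in both TAC libraries in 44 of these, and 26 of the 28 ligands (not Bdnf or Vegfc) had at least 1 such receptor. Over all genes 85.6% reached 1 FPKM in both TAC libraries, a larger share than among these pairs. The receptor itself was higher in DP in 18 of the 56 pairs, higher in TAC in 6, not called in 29 and under the minimum in 3. The 6 crossed pairs were Inhba with Acvr1b, Nrg2 with Erbb3, Eda with Edar, Wnt5b with Fzd6, and Efna5 with Epha1 and with Epha2. Among these the ligand calls of Nrg2 and Wnt5b were each lost with 1 library left out, as given above.

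In the other direction, 56 pairs on 18 ligands had the ligand lower in DP. The receptor reached 1 FPKM in both DP libraries in 51, and every one of the 18 ligands had at least 1 such receptor. Over all genes 89% reached that level, so neither share is a result about the receptors. The receptor was higher in DP in 14 of these pairs, lower in 12 and not called in 30. Of the 14 crossed pairs, 9 were Shh with Ptch1, Pdgfa with Pdgfra, Ptn with Ptprz1 and Sdc3, Bmp2 with Bmpr1b, Gas6 with Axl, Efnb2 with Ephb2 and Ephb4, and Npnt, a basement membrane protein, with the integrin gene Itga8. The other 5 were all of Wnt ligands with Fzd2. The receptor calls of Fzd2, Axl, Ephb2 and Ephb4 were each lost with 1 library left out. Their log2 differences were then as low as 0.95, 0.82, 0.58 and 0.98. The call of the ligand gene Wnt6 was lost in such fits too. With a receptor counted only where it also reached 10% of its level in the population that made the ligand, a rule added after the values were seen, 37 and 47 pairs in place of 44 and 51 had the receptor in the facing population.

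**Figure D4:**
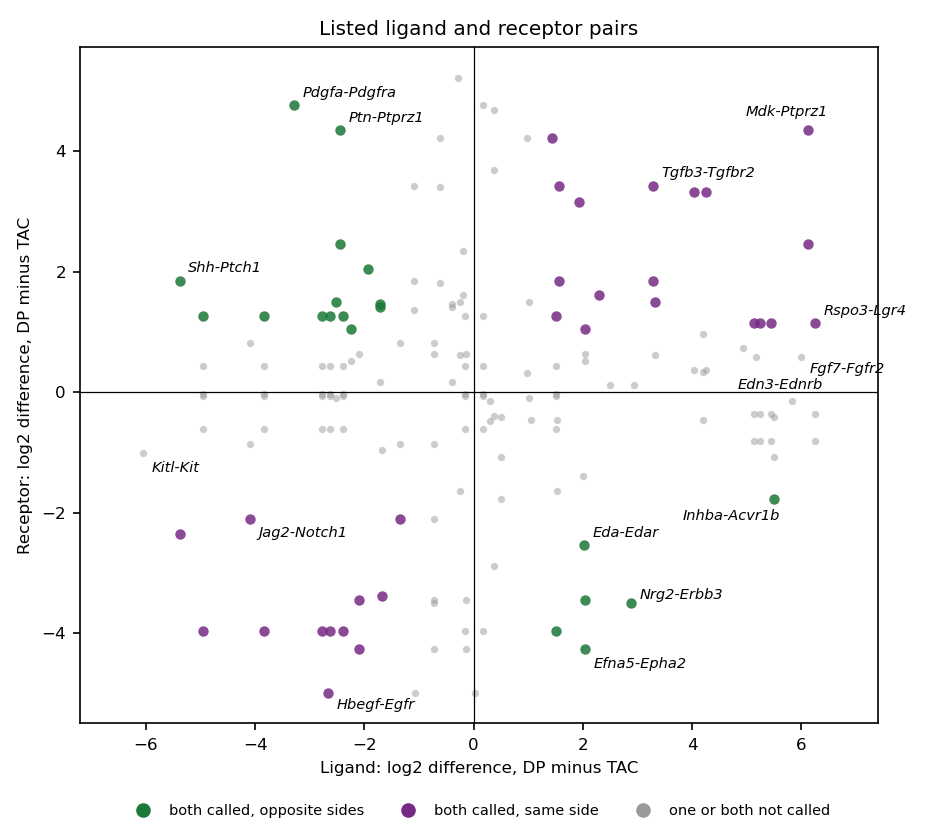
Each point is a listed pair with both genes tested; the x axis is the log2 difference of the ligand gene and the y axis that of the receptor gene, DP minus TAC. Green points at upper left (Shh with Ptch1, at -5.38 and 1.85, and Pdgfa with Pdgfra, at -3.28 and 4.76) and lower right (Inhba with Acvr1b, at 5.51 and -1.77) have ligand and receptor called on opposite sides, and purple points on the same side.

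The transcription factors known from each lineage differed as lists. Of 19 papilla factor genes tested 16 were higher in DP, and only Lef1 was lower. Ebf1 had 429.7 and 336 FPKM in DP, against 5.51 and 7.23 FPKM in TAC (log2 difference 5.70 ± 0.45, adjusted p = 2.276e-08). Tbx15 had 108 and 119.6 FPKM in DP, against 2.33 and 2.003 FPKM in TAC (log2 difference 5.18 ± 0.49). Alx4 had 143 and 147 FPKM in DP, against 4.83 and 2.13 FPKM in TAC (log2 difference 5.10 ± 0.36, adjusted p = 4.78e-09), and Sox2, which marks papillae of some follicle types, had 28.9 and 20.3 FPKM in DP, against 0.414 and 0.418 FPKM in TAC (log2 difference 4.16 ± 0.64). Prdm1 had 58.9 and 95.8 FPKM in DP, against 46.5 and 99.3 FPKM in TAC, with overlapping libraries. Of 21 matrix factor genes 17 were lower in DP and none higher. Hoxc13, needed for hair keratin expression, had 3.9 and 2.05 FPKM in DP, against 295 and 262 FPKM in TAC (log2 difference -6.17 ± 0.41, adjusted p = 3.138e-09). Trp63, the gene of the epithelial factor p63, had 10.02 and 5.43 FPKM in DP, against 545 and 399.6 FPKM in TAC (log2 difference -5.80 ± 0.54). Dlx3 had 5.79 and 3.99 FPKM in DP, against 279.5 and 259 FPKM in TAC (log2 difference -5.54 ± 0.53). Sox9 had 2.93 and 5.93 FPKM in DP, against 3.86 and 4.41 FPKM in TAC, a low level in both. The calls of Lef1, already given, and of Runx1, lost without DP replicate 1 or TAC replicate 2 (adjusted p up to 0.0572), were the ones that depended on 1 library.

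Transcripts of the extracellular matrix differed as well. Of 27 fibrous and papilla matrix genes 24 were higher in DP and none was lower. Vcan, the gene of the proteoglycan versican, had 1880.2 and 1526 FPKM in DP, against 41.7 and 46.4 FPKM in TAC (log2 difference 5.24 ± 0.40, adjusted p = 1.527e-08). Frem1 had 209.8 and 207 FPKM in DP, against 5.97 and 6.79 FPKM in TAC (log2 difference 4.83 ± 0.28). Col23a1 had 139.6 and 145 FPKM in DP, against 6.68 and 6.91 FPKM in TAC (log2 difference 4.20 ± 0.41). Fn1, the fibronectin gene, had 51.1 and 26.6 FPKM in DP, against 79.6 and 52.7 FPKM in TAC, and Dcn, the decorin gene, had 257 and 223 FPKM in DP, against 307 and 294 FPKM in TAC; neither was called. Beside these stand the markers of dermal fibroblasts, 7 of 11 higher in DP and 4 not called. The 12 listed genes summed to 3528 and 2005 FPKM in DP, against 560.2 and 486 FPKM in TAC. The 10 with at least 10 FPKM in DP had levels in TAC from 1% (Dlk1) to 125% (Dcn) of those in DP, with a median of 10.8%. Many papilla cells express these genes too, and the part of other fibroblasts was not tested. Calls lost with 1 library out were those of Lum without any 1 of the 4 libraries (adjusted p up to 0.12) and Lox without DP replicate 1, TAC replicate 1 or TAC replicate 2 (adjusted p up to 0.205). Likewise lost were those of Dpt without any 1 of the 4 libraries (adjusted p up to 0.181) and Eln without DP replicate 2 or TAC replicate 1 (adjusted p up to 0.125).

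Basement membrane genes separated by chain. Of 24, 12 were higher in DP, 8 lower and 4 not called. On the DP side were Lama2, with 175 and 219 FPKM in DP, against 5.58 and 4.79 FPKM in TAC (log2 difference 5.00 ± 0.38), Nid1, with 274 and 368 FPKM in DP, against 6.37 and 8.17 FPKM in TAC (log2 difference 5.28 ± 0.30, adjusted p = 6.314e-10), and Lamc3, with 41.97 and 44.3 FPKM in DP, against 1.3 and 1.01 FPKM in TAC. On the TAC side were the laminin chain genes Lama3, with 2.49 and 0.814 FPKM in DP, against 43.2 and 38.5 FPKM in TAC (log2 difference -4.05 ± 0.44, adjusted p = 8.061e-07), and Lamb3, with 0.0524 and 0.222 FPKM in DP, against 6.13 and 6.22 FPKM in TAC. Lama5 had 1.83 and 0.522 FPKM in DP, against 36.9 and 24.6 FPKM in TAC (log2 difference -3.91 ± 0.50). The shared gamma chain gene Lamc1 had 52.7 and 49.1 FPKM in DP, against 76.6 and 59.3 FPKM in TAC, and was not called. Members of the FRAS and FREM complex lay on both sides: Fras1 had 4.77 and 3.51 FPKM in DP, against 41.2 and 26.8 FPKM in TAC. Frem2 had 0.114 and 0.188 FPKM in DP, against 11.1 and 7.17 FPKM in TAC, whereas Frem1 was higher in DP. Integrin genes were divided too, 6 of 13 higher and 4 lower in DP: Itga1 had 25.5 and 28.2 FPKM in DP, against 1.69 and 1.79 FPKM in TAC (log2 difference 3.34 ± 0.38). Itga5 had 24.6 and 17.1 FPKM in DP, against 2.38 and 2.67 FPKM in TAC. Itga6 had 10.5 and 7.8 FPKM in DP, against 37.5 and 37.6 FPKM in TAC. Itgb4 had 4.21 and 2.04 FPKM in DP, against 39.1 and 38.2 FPKM in TAC; the products of Itga6 and Itgb4 together form the hemidesmosome receptor of epithelial cells. Calls were lost for Hspg2 without DP replicate 1 or TAC replicate 2 (adjusted p up to 0.0919) and Lamb2 without DP replicate 1 or TAC replicate 2 (adjusted p up to 0.13). Also lost were those of Col4a5 without DP replicate 1 or TAC replicate 1 (adjusted p up to 0.13) and Egfl6 without DP replicate 1 or TAC replicate 1 (adjusted p up to 0.073). Another call lost was that of Itga11 without DP replicate 1 or TAC replicate 1 (adjusted p up to 0.161).

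Cell cycle transcripts were lower in DP for 13 of 40 genes (32.5%, beside 14.9% over all genes) and higher for none. The median log2 difference was -1.14, and 27 were not called. Mki67, a mark of cycling cells, had 90.3 and 41.3 FPKM in DP, against 215 and 174 FPKM in TAC (log2 difference -1.65 ± 0.58, adjusted p = 0.03605). Top2a had 80.99 and 42.2 FPKM in DP, against 117 and 134 FPKM in TAC, and was not called (adjusted p = 0.2113). Ung, a DNA repair gene active at replication, had 3.65 and 2.77 FPKM in DP, against 29.2 and 28.3 FPKM in TAC (log2 difference -2.83 ± 0.62, adjusted p = 0.001439), and Mcm7, part of the replicative helicase, had 13.7 and 8.73 FPKM in DP, against 37.8 and 43.5 FPKM in TAC (log2 difference -1.80 ± 0.35, adjusted p = 0.0005734). The 40 genes summed to 973 and 548 FPKM in DP, against 1810.0 and 1609 FPKM in TAC, so DP replicate 1 held more of them than replicate 2. Without DP replicate 2 the 13 called genes became 2, without TAC replicate 1 to 4 and without TAC replicate 2 to 6. Ung and Mcm7 alone among the 13 kept their call in each of the 4 fits with 1 library left out. Of the inhibitors of the cycle, Cdkn1a, the gene of p21, had 28.8 and 15.2 FPKM in DP, against 345 and 316 FPKM in TAC (log2 difference -3.92 ± 0.44, adjusted p = 1.282e-06), whereas Cdkn1c, the gene of p57, had 22.2 and 29.2 FPKM in DP, against 0.383 and 3.05 FPKM in TAC (log2 difference 3.48 ± 0.76, adjusted p = 0.001422).

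Over all genes, the 10 largest differences in each direction repeat these themes only in part. Higher in DP, beside Rspo3, Mdk, Fgf7, Edn3 and Corin, were F5, the gene of coagulation factor V, with 380.1 and 334 FPKM in DP, against 4.32 and 3.87 FPKM in TAC (log2 difference 6.13 ± 0.67), Pappa2, a protease that frees insulin-like growth factors, with 349.8 and 251 FPKM in DP, against 2.43 and 4.55 FPKM in TAC (log2 difference 6.09 ± 0.43), Gldn, with 158 and 292 FPKM in DP, against 2.42 and 2.11 FPKM in TAC, Gpx3, with 141 and 131 FPKM in DP, against 0.81 and 1.92 FPKM in TAC, and Col15a1, with 329 and 256 FPKM in DP, against 3.42 and 5.05 FPKM in TAC. Lower in DP, beside Hoxc13, Kitl and Trp63, were Gpnmb, with 0.989 and 5.79 FPKM in DP, against 451 and 669 FPKM in TAC (log2 difference -7.23 ± 0.63), Mt4, a metallothionein of stratified epithelium, with 0 and 2.41 FPKM in DP, against 208 and 284 FPKM in TAC, Krt35, a hair keratin gene, with 4.93 and 2.17 FPKM in DP, against 339 and 263 FPKM in TAC, Trim29, with 0.446 and 1.96 FPKM in DP, against 126 and 149 FPKM in TAC, the cadherin gene Cdh3, with 2.25 and 3.21 FPKM in DP, against 224 and 186 FPKM in TAC, and the protease gene St14, with 0.418 and 0.86 FPKM in DP, against 100.1 and 77.8 FPKM in TAC. In sorted melanocytes Gpnmb had 780 and 498 FPKM, in sorted dermal fibroblasts 202 and 108 FPKM and in Mx 36.0 and 59.6 FPKM. The melanocyte markers in TAC were at 1.06% to 2.2% of their level in sorted melanocytes. The part of any other cell type in the Gpnmb values of TAC was not tested. Malat1, a nuclear RNA that nearly every cell holds, had 0 in each DP library, against 3588 and 3694 FPKM in TAC. It was listed at 0 in 10 of the 28 libraries, and these were the DP libraries and all the papilla subtype libraries. A 0 in this table can be a failed estimate, so no fold is given for it. Why it was 0 in every papilla library and in no other was not tested.

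Markers of endothelial cells and leukocytes were low. Schwann cell markers summed to 7.19 and 14.3 FPKM in DP, against 29.1 and 26.0 FPKM in TAC. Those of muscle, fat and red cells summed to 15.5 and 40.2 FPKM in DP, against 47.85 and 29.6 FPKM in TAC. Of endothelial markers Pecam1 had 0.433 and 2.77 FPKM in DP, against 3.38 and 0.257 FPKM in TAC. Cdh5 had 1.19 and 2.56 FPKM in DP, against 3.84 and 0.787 FPKM in TAC; the 12 listed summed to 13.0 and 14.9 FPKM in DP, against 12.1 and 5.29 FPKM in TAC. Of leukocyte markers, Ptprc, Csf1r, Cd3e and Itgam lay under the minimum. Cd68 had 6.14 and 1.61 FPKM in DP, against 14.9 and 14.6 FPKM in TAC. Pericyte and smooth muscle markers summed to 81.5 and 81.8 FPKM in DP, against 35.0 and 26.4 FPKM in TAC, with Rgs5 at 2.18 and 7.13 against 4.44 and 5.88 FPKM and Acta2 at 9.38 and 15.02 against 3.11 and 3.38 FPKM. Keratinocyte markers were lower in DP for 12 of 13 genes, and their levels in DP were 1.34% (Dsg3) to 19.7% (Krt15) of those in TAC, with a median of 4.37%. Calls lost with 1 library out were those of Acta2 without any 1 of the 4 libraries (adjusted p up to 0.217) and Cd68 without DP replicate 2, TAC replicate 1 or TAC replicate 2 (adjusted p up to 0.294). Likewise lost was that of Prox1 without DP replicate 1 or TAC replicate 2 (adjusted p up to 0.224).

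The second comparison, of the papilla subtype sorts with Mx, gave 2639 of 13609 genes higher in the papilla sorts (19.4%) and 2562 lower (18.8%). It shares the fit and its estimate of spread with the first but no library; since the subtype sorts came from Sox2-GFP and Crabp1-GFP skin and Mx from K14-H2BGFP skin, line and cell type cannot be told apart in it. Of genes tested in both, 2095 were higher in DP than in TAC and 2428 higher in the subtype sorts than in Mx, and 1691 were in both lists (80.7% of the first and 69.6% of the second). For lower genes, 1833 and 2496 shared 1350 (73.6% and 54.1%). Opposite calls were given for 2 genes higher in DP and for 8 lower in DP.

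Signalling genes recurred likewise. Of 39 ligand genes higher in DP than in TAC and 41 higher in the subtype sorts than in Mx, 36 were shared (92.3% and 87.8%); Efna5, Pdgfd and Vegfb were not called in the second. Of 23 and 21 lower ligand genes 15 were shared (65.2% and 71.4%). Of 39 and 40 higher receptor genes 33 were shared (84.6% and 82.5%), and of 22 and 20 lower receptor genes 16 (72.7% and 80%). Lgr4 and Fzd2 were not among the shared ones. Bmp2 had 6.15 to 16.7 (median 9.8) FPKM in the subtype libraries and 11.3 and 12.1 FPKM in Mx (log2 difference -0.18 ± 0.30). Ednrb, not called between DP and TAC, had 7.98 to 56.4 (median 18.3) FPKM in the subtype libraries and 0.599 and 0.837 FPKM in Mx (log2 difference 3.64 ± 0.37, adjusted p = 1.29e-07), beside 6 of 10 melanocyte markers that were higher in the subtype sorts and none that was lower. Rspo4 reached 139.6 to 702 (median 382) FPKM in the subtype libraries and was listed at 0 in both Mx libraries, and Kitl had 2.1 to 13.2 (median 3.93) FPKM in the subtype libraries and 16.01 and 27.4 FPKM in Mx. Whether the 2 comparisons differ for these genes was not tested.

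**Figure D5:**
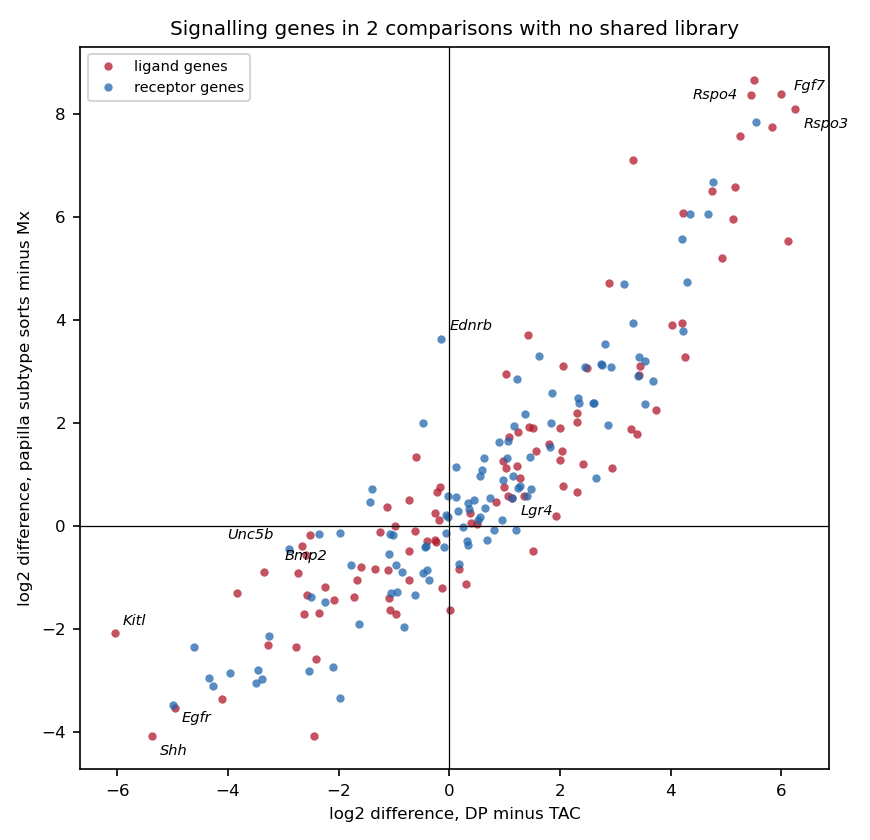
Log2 difference of each ligand (red) and receptor (blue) gene tested in both comparisons, DP minus TAC on the x axis and papilla subtype sorts minus Mx on the y axis; the comparisons share no library. Rspo3, at 6.25 and 8.10, lies at upper right, Shh, at -5.38 and -4.08, at lower left, and Ednrb, at -0.15 and 3.64, away from the others.

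In the second comparison cell cycle genes were lower in the papilla sorts as a list, with 39 of 40 lower in the subtype sorts, none higher and a median log2 difference of -2.91. Mki67 had 9.84 to 58.8 (median 24.8) FPKM in the 8 subtype libraries and 323 and 298 FPKM in Mx (log2 difference -3.49 ± 0.46, adjusted p = 3.495e-06), and Top2a had 6.58 to 49.8 (median 17.5) FPKM in the subtype libraries and 174 and 196 FPKM in Mx. For Mki67, DP replicate 1, at 90.3 FPKM, lay above the range of the subtype libraries and DP replicate 2, at 41.3 FPKM, within it, while both TAC libraries, at 215 and 174 FPKM, lay below both Mx libraries. Of the inhibitor lists, 8 of 9 Wnt antagonists and 9 of 11 BMP antagonists tested here were higher in the subtype sorts.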

How the data were processed

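RNA was taken from cells sorted from back skin at postnatal day 5; per the labels' protocols, RNA integrity was 8.8 or better, and 6 ng of RNA was reverse transcribed and amplified before library preparation. The authors deposited 1 table of FPKM values for the 28 libraries of 14 populations. Per the submitters' processing notes, TopHat2 2.0.3, Bowtie2, Cufflinks 2.1.1 and build mm10 were used; whether FPKM was scaled between libraries is not given in the sources used here. FPKM carries no counts, so depth is unknown and no counting interval was computed. Amplification and gene-wise FPKM estimation can both distort low values, and a 0 can be a failed estimate.

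Of 23235 rows, 220 identical ones were dropped. The FPKM values were tested as log2(FPKM + 1) with limma 3.58.1 in R 4.3.3, with 1 mean per population over all 28 libraries and eBayes with a trend. Adjusted p-values are Benjamini-Hochberg values over the 15052 genes with at least 1 FPKM in 2 libraries, and those given in the text are from this fit, or from its refit where a library is left out. Fold changes on this scale understate changes of low genes. Tests were checked on simulated data. No deposited column was left unused. The members and gene lists were chosen with earlier results of these data known. Genes named are the markers and gate genes, called genes of the signalling and factor lists with their listed partners, up to 6 called genes each way of the other lists, and over all genes the 10 largest differences each way (predicted genes left out, mean of 5 FPKM or more); listed genes named because they were not called were chosen after their values were seen. Alternatives were pseudocounts of 0.1 and 5, other filters, quantile normalization, fewer libraries in the fit, a replicate block and leaving out each library. Promoter sequences are from RefSeq, build GRCm38.p6. Some genes of the lists enter the counts but are not reported by name here.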

Additional observations from a re-analysis of the deposited data

How the results depend on the processing

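No call of the 315 called among 482 listed or leading genes changed direction under any alternative run. With a pseudocount of 5 the genes called between DP and TAC numbered 2626, of which 1318 were higher in DP, against 4023 and 2123 with a pseudocount of 1. Between the papilla subtype sorts and Mx they numbered 3079 (1403 higher and 1676 lower), against 5201 (2639 and 2562). A larger pseudocount shrinks differences of low genes by construction. Leaving out each of the 4 libraries in turn gave 3099 to 3503 calls, 1687 to 1767 higher and 1412 to 1736 lower in DP; the lone library left in a population is then assumed to vary like the others. Of the 315 calls, 70 were lost in at least 1 of these fits, 41 with a pseudocount of 5, 16 with one of 0.1, 18 without a filter, 13 with quantile normalization and 0 with a filter at 5 FPKM. The labels do not say what a replicate number marks. With the number as a replicate block 4471 genes were called (2315 higher and 2156 lower), 0 of the 315 calls were lost and 24 were gained; the correlation of the replicate differences between DP and TAC was 0.209. Among genes named above that were not called, the block called Axin2 (adjusted p = 0.0005176), Bmp4 (0.02574), Met (0.04846) and Tgfb1 (0.04177). With the K14-H2BGFP libraries alone Bmp4 (0.04225), Met (0.001597), Kit (0.04498) and Top2a (0.01619) were also called. With the DP and TAC libraries alone in the fit 4001 genes were called, 10 of the 315 calls were lost and 23 were gained. For cell cycle genes the 13 called became 20 with the block. With 2 libraries per population, the FPKM alone sets what could be detected, since no depth is known.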
